A study of Mus musculus with 10 samples.

Results

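The Gimap genes encode the GTPases of immunity-associated proteins, a family of small GTP-binding proteins found mainly in lymphocytes and encoded side by side in one cluster of the mouse genome. Several of the proteins sit on the membranes of mitochondria, the endoplasmic reticulum or lysosomes, where they bear on the survival of resting T and B cells; loss of Gimap5 in mice and rats and loss of Gimap1 in mice deplete mature lymphocytes. The members were taken by gene symbol, and all 8 Gimap symbols of the array are included (Gimap1, Gimap3, Gimap4, Gimap5, Gimap6, Gimap7, Gimap8 and Gimap9) out of 23152 genes measured. The family itself was chosen by its gene values in the 4 sorted groups, which were known when it was proposed. The members' differences between groups are therefore given as description, without a test of their own.

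The arrays measured total RNA of progenitors sorted from bone marrow of adult C57BL/6 mice, biotin-labelled, with no treatment or genetic change named. Ly6D+CLPs (2 arrays) and Ly6D-CLPs (2 arrays) are common lymphoid progenitors, sorted as lineage-negative, cKit-low, Sca-1-low, Flt3-high and CD127-positive cells and divided by the surface protein Ly6D. LMPP+s (3 arrays) and LMPP-s (3 arrays) are lymphoid-primed multipotent progenitors, sorted as lineage-negative, cKit-high, Sca-1-high and Flt3-high cells and divided into those with and those without CD127, the interleukin-7 receptor alpha chain. The study set both LMPP subsets against the CLPs. The labels do not say whether arrays of a group came from separate animals or sorts, so the p-values reflect the spread among these arrays alone, which may be technical, and no run date or batch is given.

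A gene value here is the mean log2 signal of the probe sets that carry only that gene's symbol. Arrays of the same group correlated at 0.973 to 0.986 across genes and arrays of different groups at 0.955 to 0.981; genes are not independent replicates. Array 1 of the Ly6D-CLPs correlated at 0.979 and 0.977 with the Ly6D+CLPs arrays and at 0.973 with its own partner, so results that rest on it are also given without it. Array 2 of the Ly6D-CLPs correlated less with the Ly6D+CLPs arrays, at 0.9703 and 0.9696. With the LMPP+s arrays it correlated at 0.9665 to 0.9677, against 0.9717 to 0.9730 for array 1. Which of the 2 departs from its group cannot be told from these values. The genes of the proteins that divide the subsets followed the labels. Ly6d averaged 11.33 ± 0.04 in Ly6D+CLPs and 5.88 ± 0.41 in Ly6D-CLPs (SD, n = 2 each), and was at 8.67 ± 0.14 in LMPP+s. Il7r, which encodes CD127, averaged 9.10 ± 0.05 in LMPP+s and 4.32 ± 0.44 in LMPP-s (SD, n = 3 each). Kit, the gene of cKit, was lower in both CLP groups (7.05 and 7.62) than in LMPP+s (8.33) and LMPP-s (8.70). Ly6a, the gene of Sca-1, did not follow the sort throughout. It averaged 6.30 ± 0.66 in Ly6D+CLPs, 5.51 ± 0.66 in Ly6D-CLPs, 7.02 ± 0.59 in LMPP+s and 5.82 ± 0.18 in LMPP-s. A low-signal limit of 4.44 was taken as the 95th percentile of 1437 sensory receptor genes, which blood progenitors are not known to use; a fold against a group mean under this limit is a lower bound.

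The promoters of 5 members are shown because these genes span the family's range. Gimap6, Gimap7, Gimap4 and Gimap9 were among the members that separated the groups, and the group means of Gimap3 stayed under the low-signal limit. All 8 members matched RefSeq promoter windows on GRCm38.p6, each of 300 bases, from 250 before to 50 after the start site, 5′ to 3′ on the gene's strand. Capitals mark matches, on either strand, to a STAT motif (TTCNNNGAA), a RUNX motif (TGTGGT) or an ETS motif (CAGGAAGT), named for factor families that act in lymphoid progenitors.
Gimap6, chr6:48708195-48708494, minus strand: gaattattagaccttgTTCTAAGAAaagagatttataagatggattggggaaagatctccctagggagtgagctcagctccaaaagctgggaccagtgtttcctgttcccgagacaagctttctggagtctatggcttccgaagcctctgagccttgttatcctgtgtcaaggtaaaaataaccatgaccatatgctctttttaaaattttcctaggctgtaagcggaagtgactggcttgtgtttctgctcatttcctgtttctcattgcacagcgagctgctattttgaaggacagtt
Gimap7, chr6:48718371-48718670, plus strand: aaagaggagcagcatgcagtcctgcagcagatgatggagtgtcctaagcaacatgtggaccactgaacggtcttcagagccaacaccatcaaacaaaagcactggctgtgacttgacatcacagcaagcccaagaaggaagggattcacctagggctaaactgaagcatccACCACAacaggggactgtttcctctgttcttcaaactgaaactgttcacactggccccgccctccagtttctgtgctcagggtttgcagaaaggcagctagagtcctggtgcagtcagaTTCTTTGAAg
Gimap4, chr6:48684328-48684627, plus strand: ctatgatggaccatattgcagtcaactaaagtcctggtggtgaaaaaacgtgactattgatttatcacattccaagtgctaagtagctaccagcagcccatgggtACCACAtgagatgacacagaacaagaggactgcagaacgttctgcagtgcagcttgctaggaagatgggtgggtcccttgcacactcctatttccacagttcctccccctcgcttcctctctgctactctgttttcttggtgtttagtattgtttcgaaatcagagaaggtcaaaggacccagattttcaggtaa
Gimap9, chr6:48675885-48676184, plus strand: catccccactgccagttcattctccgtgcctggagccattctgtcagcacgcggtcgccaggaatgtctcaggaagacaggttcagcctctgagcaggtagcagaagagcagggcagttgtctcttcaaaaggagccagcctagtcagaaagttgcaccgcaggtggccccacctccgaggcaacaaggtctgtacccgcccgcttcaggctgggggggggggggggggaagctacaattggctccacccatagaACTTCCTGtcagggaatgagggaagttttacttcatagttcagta
Gimap3, chr6:48770802-48771101, minus strand: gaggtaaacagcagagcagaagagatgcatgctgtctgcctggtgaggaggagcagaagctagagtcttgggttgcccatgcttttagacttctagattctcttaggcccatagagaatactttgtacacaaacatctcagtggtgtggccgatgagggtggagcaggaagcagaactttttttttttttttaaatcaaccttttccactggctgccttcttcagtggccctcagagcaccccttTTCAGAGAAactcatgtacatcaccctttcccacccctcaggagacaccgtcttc

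No one motif was found in all of the family's windows, of which there are 9, since Gimap8 has 2 start sites. The STAT letters occurred in Gimap3, Gimap6, Gimap7 and Gimap8 and in 8.3% of all 32851 promoters of the same length. The RUNX letters occurred in Gimap1, Gimap4 and Gimap7 and in 16.8% of all promoters, and the ETS letters in Gimap5 and Gimap9 and in 3.33% of all promoters. Of 5 further motifs, not capitalised, the E protein letters CAGGTG (20.2% of promoters) occurred in Gimap9, the TCF/LEF letters CTTTGA (16%) in Gimap4 and Gimap7, and the FOXO letters GTAAACA (3.65%) and Ikaros letters TGGGAA (25.6%) in Gimap3. The GATA letters AGATAA (11.2%) were in none of the windows. In Gimap7 the TCF/LEF match lies inside the STAT match. A match describes letters in a window and is not evidence of binding.

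Averaged over the 8 members, the family stood lowest in LMPP-s and was higher in each of the 3 groups that were sorted as CD127-positive. The family mean was 6.59 and 6.51 in Ly6D+CLPs, 6.16 and 6.02 in Ly6D-CLPs, 5.90, 5.91 and 6.20 in LMPP+s, and 4.70, 5.03 and 4.91 in LMPP-s. The group means were 6.55 ± 0.05 in Ly6D+CLPs, 6.09 ± 0.10 in Ly6D-CLPs, 6.01 ± 0.17 in LMPP+s and 4.88 ± 0.17 in LMPP-s (SD, n = 2, 2, 3 and 3). No LMPP-s array reached an array of another group, and both Ly6D+CLPs arrays were above all others, whereas the Ly6D-CLPs and LMPP+s arrays overlapped. In bulk samples such as these, fewer cells that express a gene and less of its RNA per cell cannot be told apart.

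**Figure D1:**
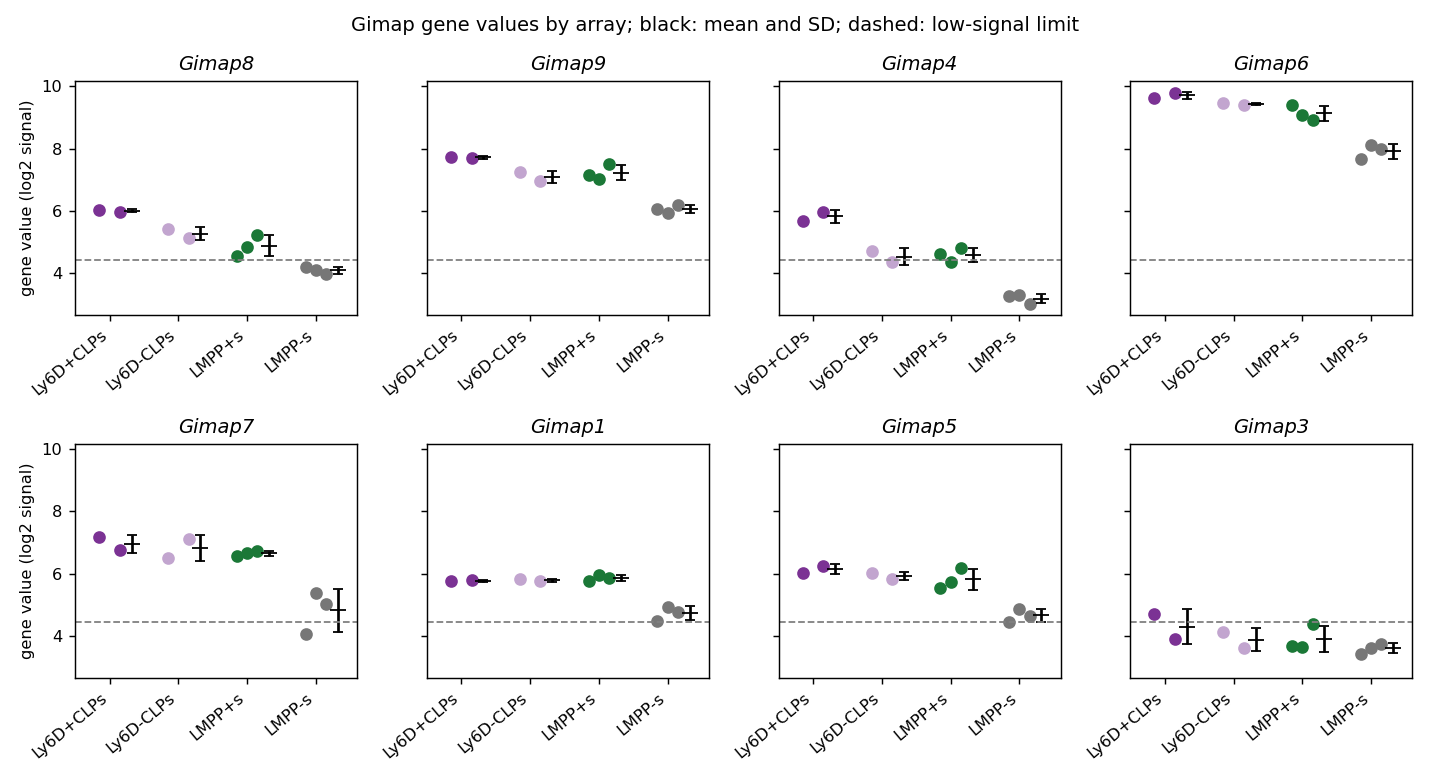
Gene value in log2 signal (y axis) of each Gimap gene on each array, by group; coloured points are arrays, black bars the mean and SD of the group, and the dashed line the low-signal limit of 4.44. Gimap6 is at 9.63 and 9.79 in Ly6D+CLPs and between 7.65 and 8.10 in LMPP-s, while Gimap3 has group means under the limit throughout.

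Gimap5 and Gimap1, the members whose loss depletes mature lymphocytes in mice, were both higher in all 3 CD127-positive groups. Gimap5 had 6.02 and 6.25 in Ly6D+CLPs, 6.02 and 5.83 in Ly6D-CLPs, 5.53, 5.72 and 6.19 in LMPP+s, and 4.45, 4.88 and 4.66 in LMPP-s. Its LMPP-s arrays were all below every other array, and its LMPP+s arrays overlapped with both CLP groups. The log2 differences from LMPP-s were 1.48 (SE 0.21) in Ly6D+CLPs, 1.26 (SE 0.21) in Ly6D-CLPs and 1.15 (SE 0.19) in LMPP+s, the last of them a 2.22-fold higher signal. Gimap1 had 5.75 and 5.79 in Ly6D+CLPs, 5.82 and 5.75 in Ly6D-CLPs, 5.75, 5.95 and 5.86 in LMPP+s, and 4.48, 4.94 and 4.76 in LMPP-s. Averaged over its probe sets, Gimap1 was the flattest member among the CD127-positive groups. Its 3 differences from LMPP-s were 1.04, 1.06 and 1.13 (SE 0.16, 0.16 and 0.14) in Ly6D+CLPs, Ly6D-CLPs and LMPP+s. Single probe sets were not flat: the brightest differed from LMPP-s by 1.77, 1.35 and 1.91 in the same order. With the median probe set the differences of Ly6D+CLPs and LMPP+s from LMPP-s were 0.48 and 0.58.

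Gimap6, whose protein binds the autophagy protein Gabarapl2, was higher in the CD127-positive groups with the least spread between probe sets. It had 9.63 and 9.79 in Ly6D+CLPs, 9.46 and 9.41 in Ly6D-CLPs, 9.40, 9.09 and 8.90 in LMPP+s, and 7.65, 8.10 and 7.98 in LMPP-s. The 4 groups did not overlap with each other in any pair. It was 3.48-fold higher in Ly6D+CLPs than in LMPP-s (log2 1.80, SE 0.19), 2.88-fold higher in Ly6D-CLPs (log2 1.52, SE 0.19) and 2.33-fold higher in LMPP+s (log2 1.22, SE 0.17).

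Gimap4, a promoter of programmed death in mouse T cells, was higher in Ly6D+CLPs than in each of the other groups, with no overlap of arrays. It had 5.68 and 5.97 in Ly6D+CLPs, 4.72 and 4.35 in Ly6D-CLPs, 4.62, 4.35 and 4.81 in LMPP+s, and 3.26, 3.29 and 3.01 in LMPP-s. The LMPP-s mean of 3.19 ± 0.16 was under the low-signal limit, so the signal was at least 2.61-fold higher in Ly6D+CLPs, at least 1.07-fold higher in Ly6D-CLPs and at least 1.11-fold higher in LMPP+s. The fitted log2 differences from LMPP-s, which are not bounds, were 2.64 (SE 0.19), 1.35 (SE 0.19) and 1.41 (SE 0.17) for Ly6D+CLPs, Ly6D-CLPs and LMPP+s. Gimap3, which affects the segregation of mitochondrial DNA in mice, had 4.69 and 3.89 in Ly6D+CLPs, 4.13 and 3.63 in Ly6D-CLPs, 3.67, 3.65 and 4.40 in LMPP+s, and 3.43, 3.61 and 3.75 in LMPP-s. All 4 of its group means were under the low-signal limit, and no fold is given.

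Gimap7, whose human counterpart hydrolyses GTP as a dimer, was higher in all 3 CD127-positive groups than in LMPP-s. It had 7.16 and 6.75 in Ly6D+CLPs, 6.51 and 7.11 in Ly6D-CLPs, 6.56, 6.66 and 6.72 in LMPP+s, and 4.06, 5.38 and 5.01 in LMPP-s. The LMPP-s arrays spread more than those of any other group of this gene (SD 0.69), with array 1 lowest, yet all stayed below the rest. The signal was 4.41-fold higher in Ly6D+CLPs than in LMPP-s (log2 2.14, SE 0.33), 3.99-fold higher in Ly6D-CLPs (log2 1.99, SE 0.33) and 3.55-fold higher in LMPP+s (log2 1.83, SE 0.29).

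Gimap8, a longer protein that carries more than one GTPase domain, had 6.04 and 5.97 in Ly6D+CLPs, 5.41 and 5.12 in Ly6D-CLPs, 4.56, 4.85 and 5.24 in LMPP+s, and 4.20, 4.10 and 3.97 in LMPP-s. Its LMPP-s mean of 4.09 ± 0.12 was under the limit, and the signal was at least 2.97-fold higher in Ly6D+CLPs, at least 1.78-fold higher in Ly6D-CLPs and at least 1.36-fold higher in LMPP+s. Gimap9 had 7.74 and 7.69 in Ly6D+CLPs, 7.23 and 6.94 in Ly6D-CLPs, 7.14, 7.03 and 7.49 in LMPP+s, and 6.05, 5.93 and 6.18 in LMPP-s. It was 3.17-fold higher in Ly6D+CLPs than in LMPP-s (log2 1.66, SE 0.17), 2.05-fold higher in Ly6D-CLPs (log2 1.04, SE 0.17) and 2.25-fold higher in LMPP+s (log2 1.17, SE 0.16). For both genes the LMPP-s arrays were below, and the Ly6D+CLPs arrays above, all other arrays.

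Read against the array as a whole, 6 of the 8 members were called higher in LMPP+s than in LMPP-s and none lower (limma, 4 group means, Benjamini-Hochberg adjusted p under 0.05 over 23152 genes), where 0.881% of all genes were called higher and 0.592% lower. Gimap8 (log2 0.79, SE 0.18) and Gimap3 (log2 0.31, SE 0.26) were not called. The median log2 difference of the members was 1.16, against -0.0051 over all genes, and in 7 members every LMPP+s array was above every LMPP-s array, as in 8.46% of all genes. Since the family was proposed from these contrasts, nothing is read from this count. Without LMPP-s array 1 the difference of Gimap5 was 1.04 and its call was lost (adjusted p 0.0629), and without LMPP+s array 3 that of Gimap7 was 1.79 and its call was lost (adjusted p 0.0644). Without LMPP+s array 1, Gimap8 was called (log2 0.96, adjusted p 0.0403).

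In Ly6D+CLPs against LMPP-s, 7 members were called higher (3.93% of all genes) and all 8 had arrays that did not overlap (20.2% of all genes); the members' median was 1.73, against 0.022 over all genes. In Ly6D-CLPs against LMPP-s, 7 members were called higher (2.93% of all genes) and 7 did not overlap (17.3%), with a median of 1.22 against -0.00281 over all genes. Gimap3 was the member not called in either of them. Both share the LMPP-s arrays with the comparison above. Without array 1 of the Ly6D-CLPs, Gimap8 (log2 1.03, adjusted p 0.0522) and Gimap9 (log2 0.89, adjusted p 0.0525) were no longer called higher in Ly6D-CLPs than in LMPP-s.

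**Figure D2:**
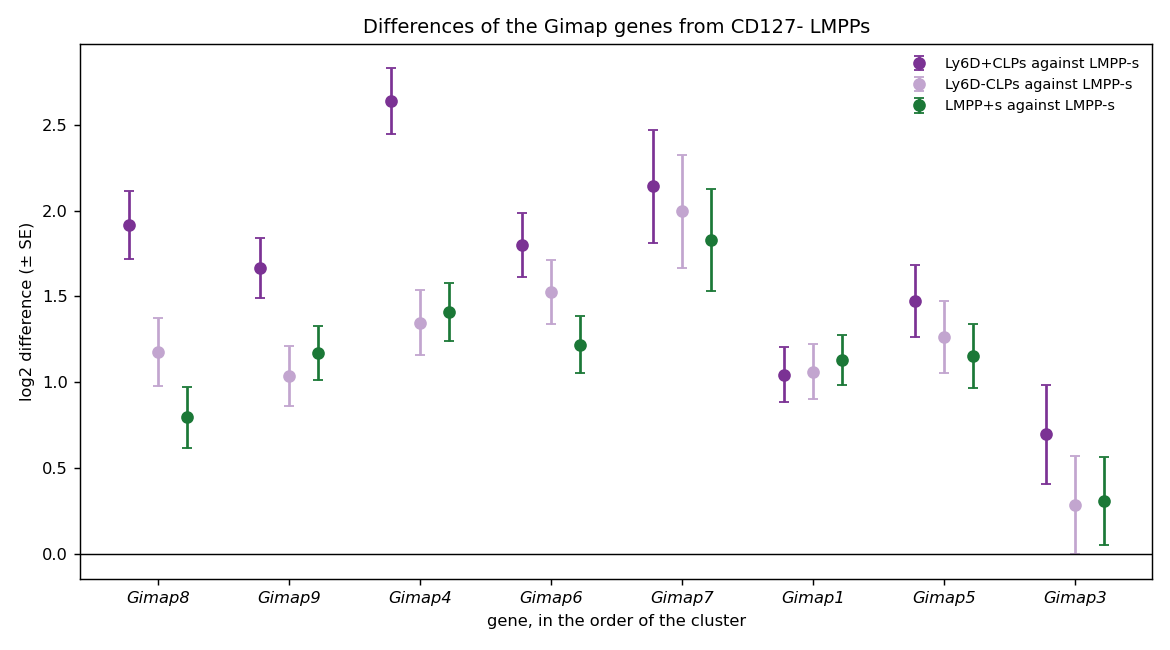
Log2 difference from LMPP-s (y axis, ± SE) of each Gimap gene, in cluster order (x axis), for Ly6D+CLPs, Ly6D-CLPs and LMPP+s. Averaged over its probe sets, which disagree, Gimap1 has nearly the same difference in the 3 groups (1.04, 1.06 and 1.13). Gimap4, whose LMPP-s mean is under the low-signal limit, has a fitted difference of 2.64 in Ly6D+CLPs. In Ly6D-CLPs and LMPP+s the Gimap4 differences are 1.35 and 1.41.

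The 3 CD127-positive groups were closer to each other. In Ly6D+CLPs against LMPP+s, 2 members were called higher, where 1.28% of all genes were: Gimap4, which was 2.34-fold higher (log2 1.23, SE 0.19), and Gimap8, which was 2.18-fold higher (log2 1.12, SE 0.20). Another 3 members, Gimap6 (0.58, SE 0.19), Gimap9 (0.49, SE 0.17) and Gimap7 (0.31, SE 0.33), had all Ly6D+CLPs arrays above all LMPP+s arrays without being called, and 17.9% of all genes had arrays so placed. With a trended and robust variance, or with dim genes left out, Gimap6 was called too (adjusted p 0.0182 and 0.0432). The calls depend on single Ly6D+CLPs arrays: without array 2, Gimap4 had a difference of 1.08 (adjusted p 0.0778) and Gimap8 one of 1.15 (adjusted p 0.0803), neither of them called, and without array 1 Gimap8 had one of 1.09 (adjusted p 0.0959) and lost its call while Gimap4 kept its own.

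In Ly6D-CLPs against LMPP+s, none of the 8 members was called by limma, also with a trended and robust variance, and none had an unadjusted p under 0.05, where 18% of all genes had one; 0.635% of all genes were called higher. The members' differences ran from -0.13 for Gimap9 (SE 0.17) to 0.38 for Gimap8 (SE 0.20), with a median of 0.043, and 1 member, Gimap6, did not overlap (16.5% of all genes). A missed threshold with 2 and 3 arrays does not show that the levels were equal. In Ly6D+CLPs against Ly6D-CLPs, none of the 8 members was called, where 0.0389% of all genes were called higher, although 3 had an unadjusted p under 0.05 (9.1% of all genes) and Gimap4 was called with a trended and robust variance (adjusted p 0.0195). Its signal was 2.45-fold higher in Ly6D+CLPs (log2 1.29, SE 0.21); Gimap8 followed at 1.67-fold (log2 0.74, SE 0.22) and Gimap9 at 1.54-fold (log2 0.62, SE 0.19). In these 3 members, and in Gimap5 and Gimap6, both Ly6D+CLPs arrays were above both Ly6D-CLPs arrays, as in 18.4% of all genes. For Gimap5 the closest arrays, at 6.0219 in Ly6D+CLPs and 6.0179 in Ly6D-CLPs, were barely apart.

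The members rest on 4 to 9 probe sets each, 51 in all, of which 43 were above the low-signal limit in at least 1 group. Probe sets of a gene are not independent replicates, and the family was chosen by these values, so their counts are description. The share of all probe sets with a positive difference was not taken. Between LMPP+s and LMPP-s, 48 of the 51 had a positive difference and 32 had no overlap between arrays (6.13% of all probe sets), and none was lower without overlap (6.59%). All 8 probe sets of Gimap6 fell within a narrow band, from 1.00 to 1.48. The probe sets of Gimap7 ran from 0.77 to 2.50 and those of Gimap5 from 0.29 to 2.11. Those of Gimap8 disagreed, from -0.35 to 2.62, and those of Gimap4 ran from -0.14 to 2.78.

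Between Ly6D+CLPs and Ly6D-CLPs, 44 of the 51 probe sets had a positive difference, and 30 had no overlap with Ly6D+CLPs higher (16.5% of all probe sets), against 4 with no overlap and Ly6D+CLPs lower (18.2%). Gimap8 (0.36 to 1.28), Gimap9 (0.25 to 0.84) and Gimap6 (0.04 to 0.44) were positive in every probe set. Gimap4 ran from -0.05 to 3.93; of its 9 probe sets the 6 above the limit lay between 0.45 and 3.93 and the others at 0.58 or less. The Gimap1 (-1.0001 to 0.53) and Gimap5 (-1.03 to 1.41) probe sets went both ways.

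**Figure D3:**
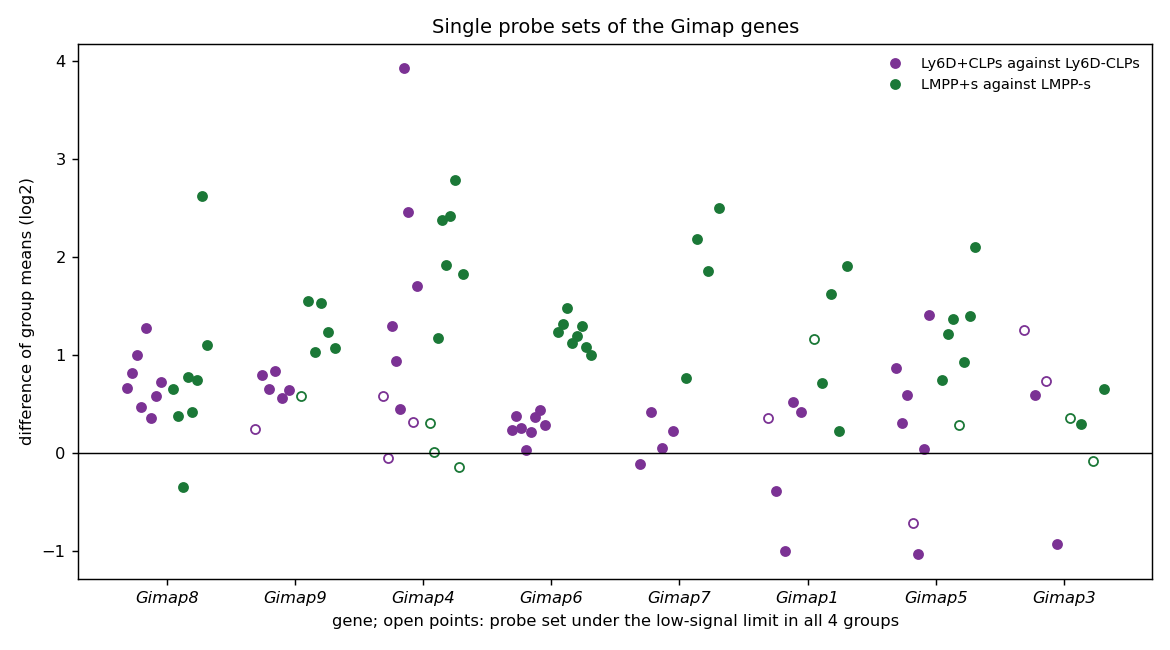
Difference of group means in log2 (y axis) for each probe set of each Gimap gene (x axis), for Ly6D+CLPs against Ly6D-CLPs and LMPP+s against LMPP-s; open points are probe sets under the low-signal limit in all groups. Gimap6 probe sets lie together at 1.00 to 1.48 between the LMPP subsets, while Gimap4 probe sets spread up to 3.93 between the CLP subsets.

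In the RefSeq order the family forms one run on chromosome 6, Gimap8, Gimap9, Gimap4, Gimap6, Gimap7, Gimap1, Gimap5 and Gimap3, and 10 measured genes beside it, 5 on each side, were examined. On one side Gm5111 rose in the same 3 groups: it had 7.52 and 7.85 in Ly6D+CLPs, 7.90 and 7.75 in Ly6D-CLPs, 8.42, 8.18 and 8.31 in LMPP+s, and 6.05, 6.40 and 6.68 in LMPP-s. Its log2 difference was 1.93 in LMPP+s against LMPP-s (SE 0.18, limma adjusted p 0.000334). Against the same LMPP-s arrays it was 1.44 for the Ly6D-CLPs (SE 0.20, adjusted p 0.00207) and 1.31 for the Ly6D+CLPs (SE 0.20, adjusted p 0.00203). The genes between it and the cluster, Repin1, Zfp775 and AI854703, were not called in any comparison with LMPP-s. On the other side Tmem176b and Tmem176a, membrane proteins of myeloid and dendritic cells, fell in Ly6D+CLPs against LMPP-s by 0.64 (adjusted p 0.0136) and 0.92 (adjusted p 0.00981), where 6.94% of all genes were called lower. Without array 2 of the Ly6D+CLPs neither kept its call, and of the 10 genes only 1 was then called, against 3 with all arrays; without array 1 of the Ly6D+CLPs Tmem176b lost its call. Both averaged close to LMPP-s in LMPP+s, Tmem176b at 8.23 ± 0.13 against 8.25 ± 0.02 and Tmem176a at 7.27 ± 0.31 against 7.39 ± 0.06 (SD, n = 3 each).

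**Figure D4:**
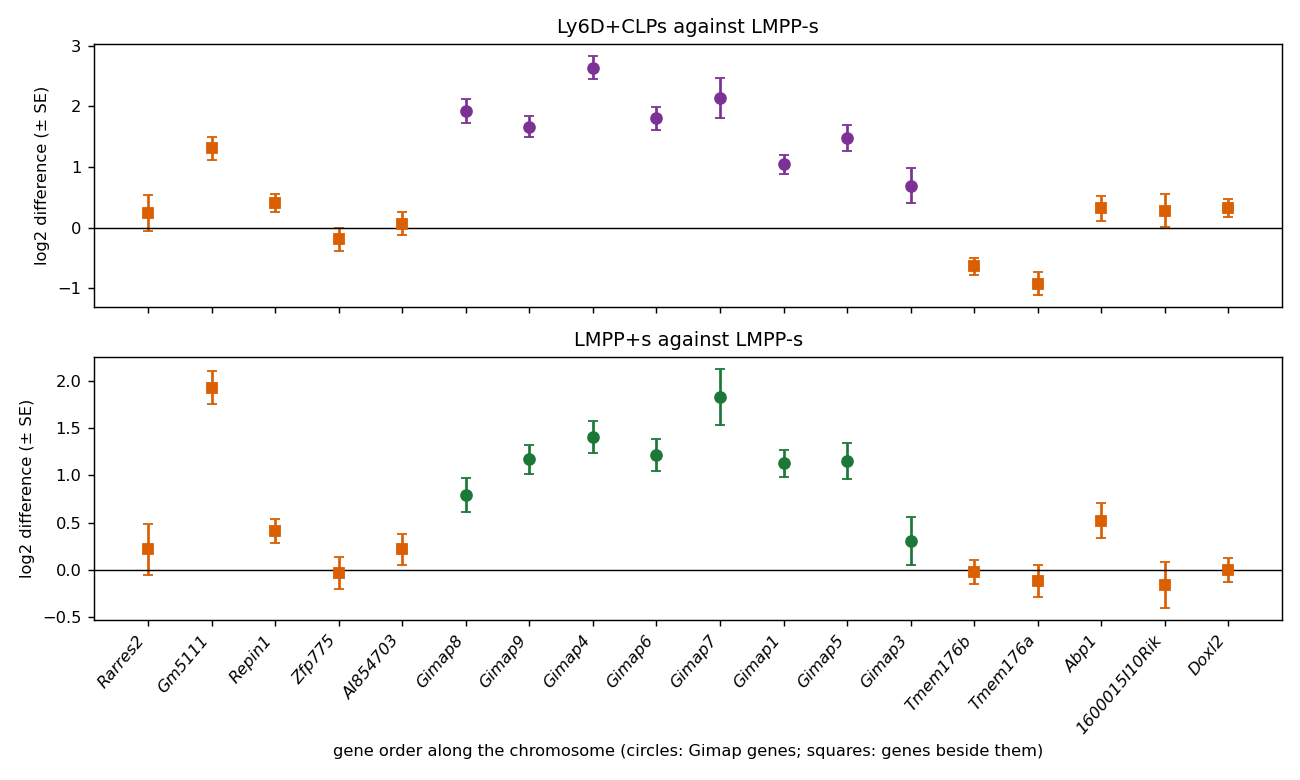
Log2 difference (y axes, ± SE) of the Gimap genes (circles) and of 5 genes on each side (squares) in chromosome order (x axis), for Ly6D+CLPs against LMPP-s and LMPP+s against LMPP-s. Gm5111 is at 1.31 and 1.93, and Tmem176a, next but one to Gimap3, is at -0.92 in Ly6D+CLPs.

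Genes of related function were described from 4 lists, in LMPP+s against LMPP-s and in Ly6D+CLPs against LMPP-s. Of all genes, 0.881% were called higher and 0.592% lower in the LMPP+s comparison, and 3.93% higher and 6.94% lower in the Ly6D+CLPs comparison; 11.1% and 24.9% had an unadjusted p under 0.05. Among the proteins reported to bind GIMAP proteins or to share their pathway (7 measured: Bcl2 family members, Gabarapl2 and Gsk3b), none was called in LMPP+s, with 3 at an unadjusted p under 0.05. In Ly6D+CLPs, Bcl2l11, which encodes the death-promoting protein Bim, rose by 1.12 (SE 0.16, limma adjusted p 0.00145), while the death-promoting genes Bad and Bak1 fell by 0.66 (adjusted p 0.0133) and 0.85 (adjusted p 0.0231). The list's median was 0.00195 in LMPP+s and -0.27 in Ly6D+CLPs. Leaving out Ly6D+CLPs array 1, or array 2, left 1 of the 7 called.

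Of 12 genes of lymphocyte quiescence and recirculation, none was called in LMPP+s against LMPP-s, with 2 at an unadjusted p under 0.05, and 4 rose in Ly6D+CLPs against LMPP-s. They were the antiproliferative gene Btg2 (1.11, adjusted p 0.00707), the transcription factor genes Lef1 (adjusted p 0.0168) and Foxo1 (0.82, adjusted p 0.00895), and the exit receptor gene S1pr1 (0.63, adjusted p 0.0306). The LMPP-s mean of Lef1, 4.30 ± 0.31, was under the low-signal limit, so its signal was at least 1.95-fold higher in Ly6D+CLPs. The list's medians were 0.36 in Ly6D+CLPs and 0.09 in LMPP+s. Leaving out Ly6D+CLPs array 1 left 1 of them called, and leaving out Ly6D+CLPs array 2 or LMPP-s array 1 left 2. Of 6 interferon-inducible GTPases outside the guanylate-binding proteins, none was called in LMPP+s, with 1 at an unadjusted p under 0.05. In Ly6D+CLPs Mx2 rose by 0.85 (adjusted p 0.0211) and Irgm2 fell by 0.92 (adjusted p 0.00937). Without array 1 of the Ly6D+CLPs neither was called, and without array 2 of the Ly6D+CLPs or array 1 or 3 of the LMPP-s 1 was. None of 12 core autophagy genes was called in either comparison, with 0 at an unadjusted p under 0.05 in LMPP+s and 1 in Ly6D+CLPs; 1 was called in Ly6D+CLPs without LMPP-s array 3, and 1 with a trended and robust variance.

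Gimap genes are strongly expressed in mature T cells, and markers of that and other cell types were set beside the family. Of 10 measured mature T cell markers, 4 were above the low-signal limit in Ly6D+CLPs and 3 in each other group, and the mean of the list ran from 4.60 to 4.79 in Ly6D+CLPs, 4.49 to 4.51 in Ly6D-CLPs, 4.43 to 4.55 in LMPP+s and 4.09 to 4.26 in LMPP-s. The genes Cd3d, Cd3e and Cd3g, which encode the invariant chains of the T cell receptor complex, had means under the limit in all groups: 3.22, 4.15 and 2.88 in Ly6D+CLPs and 3.49, 4.27 and 2.78 in LMPP-s. Cd28, a costimulatory receptor gene, rose by 1.01 in LMPP+s against LMPP-s (limma adjusted p 0.00308) and Cd6, a surface receptor gene, by 1.04 (adjusted p 0.0157). These were the 2 of 10 markers called higher there, where 0.881% of all genes were. Cd6 lost this call without LMPP-s array 1 or LMPP+s array 1 or 3. Against LMPP-s, Cd28, Cd6 and Cd5 were called higher in Ly6D+CLPs (1.58, 1.62 and 1.33) and in Ly6D-CLPs (1.27, 1.31 and 1.30). They were 3 of 10 markers in each, where 3.93% and 2.93% of all genes were called higher. The part of these cells in the family's differences was not tested.

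The mean of the mature B cell markers ran from 4.13 to 4.18 in Ly6D+CLPs, 3.65 to 3.79 in Ly6D-CLPs, 3.64 to 3.76 in LMPP+s and 3.41 to 3.70 in LMPP-s, and that of the mature NK cell markers from 5.24 to 5.26, 5.03 to 5.08, 5.05 to 5.17 and 4.96 to 5.02 in the same order. Of 6 measured B cell markers, 2 were above the low-signal limit in Ly6D+CLPs and 0 in each other group. Only Cd79a was called higher in Ly6D+CLPs than in LMPP-s (5.78 against 3.63), where 3.93% of all genes were. Of 7 measured NK cell markers, 2 were called higher in Ly6D+CLPs than in LMPP-s and 0 lower, against the same share of all genes. Their median log2 difference was 0.21, against 0.022 over all genes. Klrd1 was called higher (7.46 against 6.49, limma adjusted p 0.008), while Nkg7 was lower without a call (8.41 against 8.85). The list means of mature neutrophil and erythroid markers were higher in LMPP+s than in LMPP-s, where 0.881% of all genes were called higher. The neutrophil marker Mmp8 went the other way, at 4.59 ± 0.64 in LMPP+s against 5.22 ± 0.62 in LMPP-s (SD, n = 3 each). The neutrophil mean ran from 5.02 to 5.68 in Ly6D+CLPs, 5.16 to 5.30 in Ly6D-CLPs, 7.13 to 8.0045 in LMPP+s and 4.74 to 6.08 in LMPP-s, and 5 of 7 were called higher in LMPP+s than in LMPP-s. Of 3 measured erythroid markers 2 were called higher there, with a list mean of 4.24 to 4.33 in Ly6D+CLPs, 4.35 to 4.52 in Ly6D-CLPs, 5.85 to 6.66 in LMPP+s and 4.62 to 4.79 in LMPP-s. In both CLP groups the neutrophil mean lay within its LMPP-s range and the erythroid mean below its LMPP-s range. The Gimap family mean exceeded that of LMPP-s by 1.67 in Ly6D+CLPs, 1.21 in Ly6D-CLPs and 1.13 in LMPP+s. The part of any of these cell types in the family's differences was not tested.

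The genes whose pattern was most like the family mean were ranked by the root mean square difference of centred log2 values over the 10 arrays. The ranking covered 10451 non-member genes above the low-signal limit. Predicted and clone-named genes, Gm5111 among them, small RNA genes and receptor segment genes were left out. The nearest were Ppp3cc, a catalytic subunit gene of the phosphatase calcineurin, at 0.136, Fcrl1, an Fc receptor-like gene of B lineage cells, at 0.153, and Ccdc135 at 0.176. They were followed by Chst15, a sulfotransferase gene, at 0.191, Gem, a small GTPase gene, at 0.192, Tpm2, a tropomyosin gene, at 0.193, Cd28 at 0.196 and Cd72, a B cell coreceptor gene, at 0.198. The spread of the family mean within groups was 0.146 (pooled SD), so the order among these genes is not separated from the spread between arrays. Ppp3cc had 7.16 and 7.04 in Ly6D+CLPs, 6.72 and 6.47 in Ly6D-CLPs, 6.24, 6.18 and 6.88 in LMPP+s, and 5.40, 5.63 and 5.30 in LMPP-s. Like the family mean it was lowest in the LMPP-s arrays. Leaving out 1 array kept 4 to 6 of these 8 genes, and taking the median or the brightest probe set per gene kept 1.

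By the same measure the members were not each other's nearest genes. The best-placed other member of each was ranked among 10458 genes. Members were ranked also when under the low-signal limit, unlike other genes. Since the family was chosen by these same values, nothing is read from the ranks. The nearest other member ranked 5 for Gimap5, 6 for Gimap7, 7 for Gimap4 and Gimap9, 22 for Gimap1 and Gimap8, 39 for Gimap6 and 4923 for Gimap3. Gimap5 (0.141) and Gimap9 (0.141) lay nearest to the family mean, which they enter, and Gimap3 (0.470), Gimap7 (0.438) and Gimap4 (0.382) farthest. The nearest other member of Gimap5 was Gimap9 (0.213), and that of Gimap9 was Gimap5; Gimap4 was nearest to Gimap8 (0.345) and Gimap7 to Gimap6 (0.401). With the same kinds of genes left out, the nearest gene was a non-member for all 8: Klf3 for Gimap1, Rem2 for Gimap3, Tnfsf11 for Gimap4, Fcrl1 for Gimap5, Cd6 for Gimap6, Myl10 for Gimap7, Rpl3l for Gimap8 and Gfra1 for Gimap9.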

How the data were processed

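Total RNA of 10 sorted progenitor samples was measured on Affymetrix arrays, and the authors deposited 1 value for each of 269751 probe sets per array. The authors made these values with Affymetrix Power Tools, per the submitters' processing notes. The deposited values, from 0.204 to 14.8, were taken to be log2 signals; the log base, the genome build and how the authors summarised and normalised the signals are not stated in the labels or headers. The arrays' quartiles differed by at most 0.125 log2, and no further normalization was applied. Probe sets with 1 gene symbol (233753) were averaged per gene; 5106 with several and 30892 with none were left out. The groups were compared with limma 3.58.1 in R 4.3.3 (lmFit and eBayes, a mean for each of 4 groups, all 10 arrays), with Benjamini-Hochberg adjustment over 23152 genes and a threshold of 0.05; the script was also run on simulated data. The number of arrays limits the precision. The named genes were all members, 5 genes on each side of the cluster, up to 4 called members of each list with the largest difference, and the 8 nearest genes by pattern. Members and lists were chosen with earlier results of these data known. Genes without a probe set of their own symbol were not analysed here. Promoters and gene order came from RefSeq (promoters on GRCm38.p6). The alternatives tried were median centring, quantile normalization, each gene's median or brightest probe set, a filter on dim genes, a trended and robust variance, the compared arrays alone, a replicate block, and each array left out in turn.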

Additional observations from a re-analysis of the deposited data

How the results depend on the processing

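The 22 calls of Gimap members kept their sign under every alternative that gave them a value, and 8 stayed called under each of these. There were 18 such alternatives, or 17 for the 4 calls of Gimap4, which the dim filter leaves out. Most losses came from how probe sets were combined: the median probe set lost 8 of the 22 calls and the brightest 10, and leaving out an array lost 6. With the median and the brightest probe set, 3 and 3 members (6 with the mean of probe sets) were called in LMPP+s against LMPP-s, 4 and 3 (7) in Ly6D-CLPs against LMPP-s, and 1 and 0 (2) in Ly6D+CLPs against LMPP+s, where leaving out an array gave 0 to 2. With a trended and robust variance 1 member was called in Ly6D+CLPs against Ly6D-CLPs. The median log2 difference of the members with the median probe set was 1.345 in LMPP+s, 1.57 in Ly6D-CLPs and 1.97 in Ly6D+CLPs against LMPP-s, and 0.23 in Ly6D-CLPs against LMPP+s. With the brightest probe set it was -0.21 in Ly6D-CLPs and 0.29 in Ly6D+CLPs against LMPP+s, and 0.58 in Ly6D+CLPs against Ly6D-CLPs. The median in Ly6D-CLPs against LMPP+s, 0.043 with the mean of probe sets and all arrays, thus changed sign. Leaving out an array gave medians of -0.0427 to 0.20 in Ly6D-CLPs against LMPP+s (0.20 without LMPP+s array 3) and 0.34 to 0.50 in Ly6D+CLPs against Ly6D-CLPs (0.50 without Ly6D+CLPs array 2). The cause of these moves was not tested beyond the probe sets given above.

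In Ly6D+CLPs against LMPP-s, leaving out an array gave 0 to 2 called interferon-inducible GTPases, 1 to 3 partners, 0 to 1 autophagy genes, 1 to 4 quiescence genes and 1 to 3 genes beside the cluster. The median probe set gave 1 called interferon-inducible GTPase and 1 quiescence gene, the brightest gave 1 partner, the dim filter 1 autophagy gene, and the trended and robust variance 5 partners, 1 autophagy gene and, in LMPP+s against LMPP-s, 1 partner. Of the other values, 186 differences of non-members lost a call and 45 gained one. Another 155 moved, for single genes by at least the gene's pooled SD within groups. The remaining 3396 were counted as unchanged: called non-members that stayed called, and other values that moved less. Differences of members were sorted by the size of the move alone, so their lost and gained calls are not among the 186 and 45. The dim filter leaves out Gimap3 and Gimap4, whose means over all arrays are under the low-signal limit.

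Deviations of arrays that share a replicate number were weakly correlated (13 pairs, -0.04 to 0.13 after removing group means). In a group of 2 arrays the deviations mirror each other, so these values cannot decide whether the numbers pair arrays. With the replicate block the counts of called members were 6, 7 and 7 in LMPP+s, Ly6D-CLPs and Ly6D+CLPs against LMPP-s, 2 and 0 in Ly6D+CLPs and Ly6D-CLPs against LMPP+s, and 0 in Ly6D+CLPs against Ly6D-CLPs, as without it.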
